A study of Mus musculus with 2 samples.

Results

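The 10 genes described here are Nr3c1, Nr3c2, Hsd11b1, Fkbp5, Tsc22d3, Zbtb16, Sgk1, Cdkn1a, Mt1 and Mt2, a group of receptors, a hormone-activating enzyme and target genes of the glucocorticoid response. They were matched by symbol to 10 of the 32589 genes in the deposited tables, and all 10 had UMIs in both libraries. They were followed in nuclei of mouse heart by single-nucleus RNA sequencing, in which each captured transcript is counted once by its unique molecular identifier (UMI). The control library came from mice given PBS, and the PD-1 inhibitor library from mice given InVivoPlus anti-mouse PD-1 antibody intraperitoneally at 5 mg/kg on days 1 and 14 of a 28-day cycle, and its nuclei are called treated below. C57BL/6 males, 8 weeks of age when treatment began, made up both groups. Each group is 1 library, and the number of hearts in it is not given in the sources used here. So nothing was tested between the groups, treatment and library cannot be told apart, and every interval below is a 95% interval for counting error only.

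Glucocorticoids enter cells and bind the glucocorticoid receptor, encoded by Nr3c1, which is held in the cytoplasm by chaperones and moves to the nucleus once hormone is bound. There it binds DNA at paired half-sites and raises or lowers the transcription of target genes. The mineralocorticoid receptor, encoded by Nr3c2, binds corticosterone as well as aldosterone. Hsd11b1 encodes an enzyme that regenerates active glucocorticoid inside cells. Fkbp5, Tsc22d3, Zbtb16 and Sgk1 are widely used target genes of the receptor, and Cdkn1a, Mt1 and Mt2 are targets that also answer to p53 or to metals.

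RefSeq promoter windows (GRCm38.p6), each running from 250 bases before a start site to 50 bases after it, were held for 8 of the 10 genes, the exceptions being Nr3c1 and Zbtb16. A full glucocorticoid receptor element, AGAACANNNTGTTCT, was searched on both strands and was found in 3 of 32851 windows (0.00913%), of which 1 belongs to Sgk1. A shortened form, GNACANNNTGTNC, was found in 0.475% of windows, among them that of Sgk1, where it lies inside the full element, and that of Mt1. The single half-site AGAACA was in 19.0% of windows, including 3 of the 6 windows of Sgk1 and 1 of the 3 of Tsc22d3. The core of the metal response element was searched as TGCACNC (12.6% of windows) and TGCGCNC (15.4%), and the windows of Mt1 and Mt2 held both forms. The 250 bases before the start site are printed for Sgk1, Mt1 and Mt2 because Sgk1 and Mt1 hold a paired receptor element and Mt1 and Mt2 hold several metal response cores. Single cores were also found in windows of Nr3c2 and Hsd11b1 and in another window of Sgk1. Capitals mark the full element in Sgk1, the shortened element and a metal response core in Mt1, and the metal response cores in Mt2.
Sgk1, chr10:21993640-21993889, plus strand: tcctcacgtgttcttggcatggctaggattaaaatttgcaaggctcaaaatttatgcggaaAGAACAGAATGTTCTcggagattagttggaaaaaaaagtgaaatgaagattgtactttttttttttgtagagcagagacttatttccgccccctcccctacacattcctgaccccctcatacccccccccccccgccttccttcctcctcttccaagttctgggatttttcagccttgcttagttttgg
Mt1, chr8:94178839-94179088, plus strand: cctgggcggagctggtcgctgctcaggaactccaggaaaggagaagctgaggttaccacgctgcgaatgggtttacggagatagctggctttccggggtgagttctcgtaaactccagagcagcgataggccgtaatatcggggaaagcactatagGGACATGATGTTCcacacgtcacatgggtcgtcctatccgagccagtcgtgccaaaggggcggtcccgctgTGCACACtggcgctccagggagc
Mt2, chr8:94172368-94172617, plus strand: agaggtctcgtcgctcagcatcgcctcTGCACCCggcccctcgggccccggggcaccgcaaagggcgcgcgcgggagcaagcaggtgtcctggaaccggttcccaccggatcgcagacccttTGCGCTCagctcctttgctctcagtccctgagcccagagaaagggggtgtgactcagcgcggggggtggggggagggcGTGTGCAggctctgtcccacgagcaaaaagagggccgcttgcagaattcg
In GENCODE vM21 the Sgk1 stretch lies in introns of 5 of the 13 transcripts of the gene, and 1 transcript starts right after it. The last 7 bases of the Mt1 stretch lie in an exon of Mt1. The element of Sgk1 begins 189 bases before the start site and the shortened element of Mt1 94 bases before it. Fkbp5 and Cdkn1a held none of these letters in their windows. A match of letters describes the window and says nothing of binding.

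The deposited counts came to 13177525 UMIs over 10197 barcodes (control) and 10875248 UMIs over 7967 barcodes (PD-1 inhibitor), and 48 barcodes were shared (0.602% of the smaller library). After filtering, 9522 and 7644 nuclei remained, with a median of 1012 and 1055 UMIs. Clusters were called endothelial cell (EC)-like, fibroblast-like and so on from marker genes, with the 10 genes kept out of the clustering, and the plain names are used below for short. Of control and PD-1 inhibitor nuclei respectively, 2804 and 2506 were ECs, 2476 and 1969 fibroblasts, 1283 and 1089 cardiomyocytes, 1256 and 884 mononuclear phagocytes (MPs), 491 and 368 mural cells, 480 and 461 mesothelial cells, and 239 and 193 T cells. In the best-marked cluster of each of these types, 10 to 14 of its defining markers were detected. The EC clusters led by Mmrn1 and by Wnt9b had only 4 and 6 of 13 EC markers. The fibroblast cluster led by Wif1 had 4 of 12 fibroblast markers. The mural cells were 1 cluster, led by Lin7a, Kcnj8 and Vtn. A cluster led by Myh11, Cnn1 and Tagln (134 and 65 nuclei) stayed unnamed and is not among them. Markers of 1 cell type were also read in others. Those of cardiomyocytes reached in ECs 5.62% of their own level in control nuclei and 5.73% in treated nuclei, while those of fibroblasts reached 22.4% and 17.5% in mesothelial cells and those of MPs 17.4% and 13.6% in T cells.

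Levels are UMIs per 1000000 UMIs of a cell type (CPM). Log2 ratios divide the treated by the control level, after 0.5 UMI was added to both sums. Over all kept nuclei none of the 10 genes differed between the libraries by 1.5-fold or more, beside 9.6% of the 14372 genes with at least 50 UMIs. Their log2 ratios ran from -0.51 for Nr3c2 to 0.36 for Mt1, with a median of 0.03 beside -0.01 for all genes. Of the 4 classical targets, Fkbp5 stood at -0.08 (-0.21 to 0.05), Tsc22d3 at 0.08 (-0.03 to 0.19), Zbtb16 at 0.16 (0.04 to 0.28) and Sgk1 at 0.01 (-0.12 to 0.13). Within cell types the differences were larger and went in more than 1 direction.

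**Figure D1:**
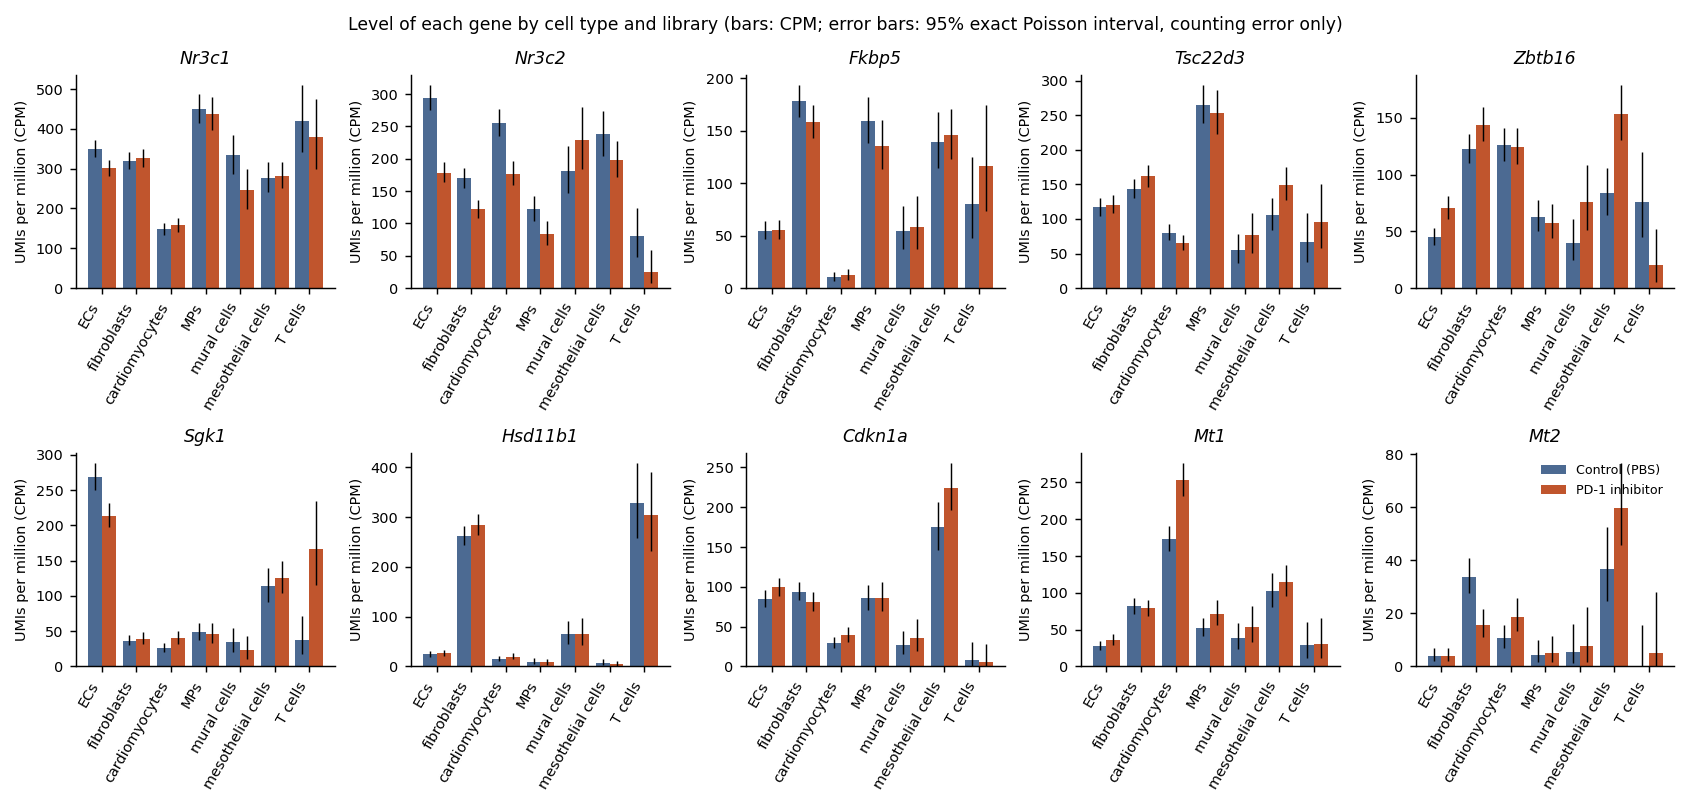
Level of each of the 10 genes in 7 cell types, as UMIs per 1000000 (CPM, vertical axis from 0), for both libraries, with 95% exact Poisson intervals as error bars. Sgk1 stood highest in ECs and Hsd11b1 in T cells and fibroblasts, and Nr3c2 was lower with PD-1 inhibitor in ECs (294 and 179 CPM) and cardiomyocytes (255 and 177 CPM).

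Past 1.5-fold were 2 of 9 genes in ECs, where 50 UMIs or more were required as in every type (background 10.5% of all genes), 1 of 10 in fibroblasts (9.62%), 2 of 10 in cardiomyocytes (16%), 0 of 8 in MPs (13.6%), 1 of 6 in mural cells (18.3%), 2 of 9 in mesothelial cells (12%) and 0 of 2 in T cells (23.3%). The shares rest on few genes and lay on both sides of the background. In ECs the genes were Nr3c2, lower, and Zbtb16, higher. Mt2 was the one in fibroblasts, lower. Sgk1 and Mt2 in cardiomyocytes, Zbtb16 in mural cells, and Zbtb16 and Mt2 in mesothelial cells were all higher with PD-1 inhibitor. The median log2 ratio of the genes was 0.32 in cardiomyocytes beside -0.01 for all genes, 0.22 in mural cells beside -0.03, 0.16 in mesothelial cells beside 0.00, and 0.05 in ECs beside 0.01. It was -0.01 in fibroblasts beside 0.00, -0.08 in MPs beside -0.03 and -0.13 in T cells beside -0.03.

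Nr3c1 (ENSMUSG00000024431, chr18:39410545-39519421 in GRCm38, minus strand), the glucocorticoid receptor gene, was present in every cell type. Its level was highest in MPs, at 449 CPM in control nuclei and 438 CPM in treated nuclei, and lowest in cardiomyocytes, at 148 and 159 CPM. T cells followed MPs with 420 and 379 CPM, and their intervals overlapped. ECs (350 and 302 CPM), fibroblasts (320 and 326 CPM), mural cells (334 and 246 CPM) and mesothelial cells (277 and 283 CPM) lay between. The log2 ratio was -0.21 in ECs (-0.34 to -0.08) and -0.44 in mural cells (-0.81 to -0.08), and its interval held 0 in the other 5 types. Nr3c1 spans 108.877 kb and belongs to the longest genes (spans of at least 45.242 kb). Their median log2 ratio was -0.13 in ECs and -0.15 in mural cells. The part of gene length in the values of Nr3c1 was not tested.

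Nr3c2 (ENSMUSG00000031618, chr8:76899442-77245012, plus strand), the mineralocorticoid receptor gene, had the lowest log2 ratio of the 10 genes over all kept nuclei, on 2681 UMIs in control nuclei and 1595 in treated nuclei. Its level in ECs was 294 CPM (275 to 315) in control nuclei and 179 CPM (163 to 195) in treated nuclei, a log2 ratio of -0.72 (-0.88 to -0.56). It was lower with PD-1 inhibitor in each of the 6 EC clusters, and in 5 of them the interval of the log2 ratio lay below 0. The EC cluster led by Mmrn1 and Reln, genes known from lymphatic endothelium, stood highest, at 878 CPM in control nuclei and 582 CPM in treated nuclei. Weighted to equal cluster shares across the libraries, the EC log2 ratio was -0.65.

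Fibroblasts had 170 and 122 CPM of Nr3c2, a log2 ratio of -0.47 (-0.68 to -0.27), and MPs had 122 and 84.4 CPM, a log2 ratio of -0.53 (-0.93 to -0.15). Of the 4 fibroblast clusters, 3 had a lower level with PD-1 inhibitor, while the one led by Wif1 and Chad had 244 and 350 CPM, with an interval of the log2 ratio that held 0 (-0.08 to 1.13). Mural cells had 181 and 228 CPM, a log2 ratio of 0.34 whose interval held 0 (-0.09 to 0.77). Mesothelial cells had 238 and 198 CPM, and the interval of their log2 ratio of -0.27 also held 0 (-0.56 to 0.03). The lower level was thus seen in ECs, fibroblasts, cardiomyocytes and MPs beyond counting error.

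In cardiomyocytes Nr3c2 stood at 255 CPM in control nuclei and 177 CPM in treated nuclei, a log2 ratio of -0.53 (-0.72 to -0.34). The cluster led by Acta1, which also had Ckm and Mb among its leading genes, had 45.1 and 48.3 CPM. It made up 493 of 1283 control nuclei and 511 of 1089 PD-1 inhibitor nuclei. With the same mix of clusters the log2 ratio was -0.30. Nr3c2 spans 345.571 kb and belongs to the longest genes (spans of at least 45.242 kb), whose median log2 ratio was -0.13 in ECs, -0.20 in cardiomyocytes and -0.15 over all kept nuclei. The part of gene length in the value of Nr3c2 was not tested.

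**Figure D2:**
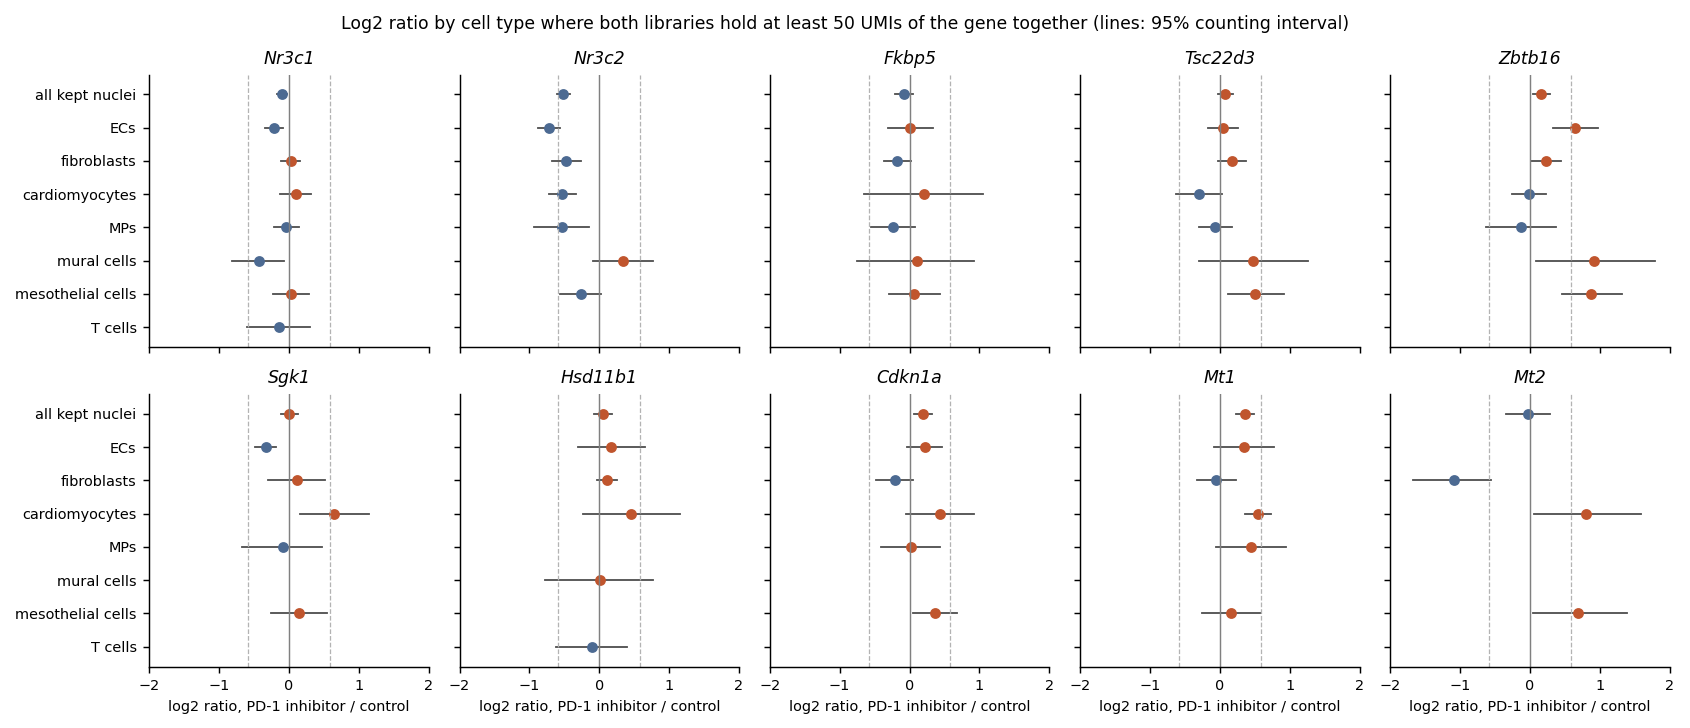
Log2 ratio of PD-1 inhibitor over control (horizontal axis) for each gene over all kept nuclei and in 7 cell types, shown where both libraries together held at least 50 UMIs, with 95% counting intervals as lines and 1.5-fold as dashed lines. Every gene had points on both sides of 0, and Nr3c2 lay left of 0 in 5 of the 6 cell types shown. Only Sgk1 and Mt2 had intervals wholly above 0 in some cell type and wholly below 0 in another.

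Hsd11b1 (ENSMUSG00000016194, chr1:193221634-193264075, minus strand), which encodes the enzyme that regenerates active glucocorticoid, was concentrated in a pair of cell types. T cells had 328 and 303 CPM and fibroblasts 263 and 284 CPM, with overlapping intervals, whereas mural cells came next with 65.6 and 66.0 CPM, and mesothelial cells were lowest with 5 UMIs in each library. A UMI of Hsd11b1 was seen in 17.7% of control and 19.8% of PD-1 inhibitor fibroblasts (median 1044 and 1088 UMIs per nucleus) and in 21.3% and 18.1% of T cells (846 and 884 UMIs). In MPs, at 902 and 966.5 UMIs, the share was 0.876% and 0.792%. Whether these are RNA from other cells was not tested, and fibroblast markers reached 4.41% of their own level in control MPs and 3.65% in treated MPs. With every nucleus thinned to 500 UMIs the shares were 9.85% and 11.1% of fibroblasts, 14.6% and 9.84% of T cells, and 0.318% and 0.226% of MPs.

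Among fibroblasts, the cluster led by Rgs17, Msc and Cxcl14 held most Hsd11b1, at 354 CPM in control nuclei and 438 CPM in treated nuclei, a log2 ratio of 0.31 (0.12 to 0.49). The cluster led by Cilp had 233 and 225 CPM and the cluster led by Igfbp3 had 115 and 149 CPM, both with log2 ratios whose intervals held 0. The cluster led by Wif1 had little, 4 UMIs in each library, or 24.4 and 22.2 CPM. Over all fibroblasts the log2 ratio was 0.11 (-0.04 to 0.26), and none of the 5 cell types with enough UMIs had an interval that left out 0. The opposite-strand genes 4930570N18Rik and Lamb3 overlap Hsd11b1, and whether the counting used strand is not given in the sources used here. Opposite-strand genes also overlap Nr3c2 (Gm10649) and Mt2 (Gm45774).

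Fkbp5 (ENSMUSG00000024222, chr17:28399094-28517527, minus strand) encodes a co-chaperone of the receptor that feeds back on hormone binding. It was highest in fibroblasts at 178 and 158 CPM, followed by MPs at 159 and 135 CPM and mesothelial cells at 139 and 146 CPM, with overlapping intervals, and lowest in cardiomyocytes at 10.7 and 12.3 CPM. In all 6 types with enough UMIs the interval of the log2 ratio held 0, and the ratios ran from -0.23 in MPs to 0.21 in cardiomyocytes. Fkbp5 is overlapped by AC154912.5 on its own strand and by AC154912.1 on the other. Over 14 points, the 7 cell types in each library, its level was most like those of Lrrk1 (r = 0.946), Ypel3 (r = 0.931) and Eif4a1 (r = 0.93) among 8481 genes. These r values are a description, since the points share libraries and each cell type enters with both.

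Tsc22d3 (ENSMUSG00000031431, chrX:140539528-140600659, minus strand) encodes GILZ, which carries part of the anti-inflammatory action of glucocorticoids. It was highest in MPs, at 265 CPM in control nuclei and 253 CPM in treated nuclei. Mesothelial cells had 105 and 150 CPM, a log2 ratio of 0.51 (0.12 to 0.91), and mitochondrially encoded transcripts there were 2.33% of UMIs in control and 1.61% in treated nuclei. Their part in the mesothelial values of Tsc22d3, Zbtb16, Cdkn1a and Mt2 was not tested. The intervals of the other 5 types with enough UMIs held 0. Within fibroblasts, the cluster led by Rgs17 had a log2 ratio of 0.31 (0.03 to 0.59) and the cluster led by Igfbp3, at 89.7 and 140 CPM, one of 0.64 (0.07 to 1.22). Within cardiomyocytes, the cluster led by Acta1 had 90.2 and 57.5 CPM, a log2 ratio of -0.65 (-1.21 to -0.10).

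Zbtb16 (ENSMUSG00000066687, chr9:48654297-48836222, minus strand) encodes PLZF, a transcriptional repressor. Its level in ECs was 44.9 CPM (37.6 to 53.3) in control nuclei and 70.4 CPM (61.0 to 80.8) in treated nuclei, a log2 ratio of 0.65 (0.32 to 0.97). The EC cluster led by Aplnr and Timp4 had 37.3 and 80.3 CPM, a log2 ratio of 1.10 (0.46 to 1.77), with UMIs in 30 and 44 nuclei. Mesothelial cells had 83.5 and 153 CPM, a log2 ratio of 0.87 (0.45 to 1.31), with UMIs in 49 control and 104 PD-1 inhibitor nuclei. The median mesothelial nucleus held 1297.5 UMIs in control nuclei and 1727 in treated nuclei, and with the same mix of depths the log2 ratio was 0.97. In ECs the same weighting, over 5 bins of depth, gave 0.67. The part of depth in the Zbtb16 values of these types was not tested.

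Mural cells had 22 UMIs of Zbtb16 in control nuclei and 30 in treated nuclei, or 40.1 and 76.1 CPM, and their log2 ratio of 0.92 (0.08 to 1.79) stayed at 0.90 without nuclei over 5% mitochondrial UMIs. Where those nuclei were clustered anew, another cluster of 102 and 54 nuclei was also named mural, and the log2 ratio was 0.30. The unnamed cluster led by Myh11 had 29 and 13 UMIs of Zbtb16, or 163 and 129 CPM. Its log2 ratio was -0.30, with an interval that held 0 (-1.40 to 0.65). Fibroblasts had 122 and 144 CPM, a log2 ratio of 0.23 (0.02 to 0.45). Cardiomyocytes had 126 and 124 CPM, with 21.2 and 31.1 CPM in the cluster led by Acta1, where the interval of the log2 ratio held 0. With the same mix of clusters the cardiomyocyte log2 ratio was 0.21 in place of -0.02. The genes most like Zbtb16 in level were BC034090 (r = 0.905), Sqstm1 (r = 0.857) and Oxnad1 (r = 0.857), over the same 14 points.

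Sgk1 (ENSMUSG00000019970, chr10:21882184-21999903, plus strand) encodes a kinase that acts on ion channels and cell survival and answers to both receptors. Its promoter window is the one that holds the full receptor element printed above. ECs had the highest level, at 269 CPM (251 to 288) in control nuclei and 214 CPM (197 to 231) in treated nuclei, a log2 ratio of -0.33 (-0.49 to -0.18). The EC cluster led by Aplnr stood highest at 483 and 454 CPM, with an interval that held 0 (-0.30 to 0.13). The cluster led by Ahsg and H19 had 204 and 129 CPM, a log2 ratio of -0.66 (-1.0 to -0.32), and the cluster led by Nrg1 had 145 and 174 CPM, with an interval that held 0. The Aplnr cluster made up 991 of the 2804 ECs in control and 688 of the 2506 from the treated group, and with the same mix of clusters the EC log2 ratio was -0.16.

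Cardiomyocytes had little Sgk1, 63 UMIs (25.9 CPM) in control nuclei and 82 UMIs (40.4 CPM) in treated nuclei, a log2 ratio of 0.64 (0.15 to 1.14). EC markers summed to 687 CPM in these control cardiomyocytes and 927 CPM in the PD-1 inhibitor ones, 5.66% and 7.57% of their level in ECs, with 12 of 13 markers higher and 0 of 13 at 0 in both. Their part in the Sgk1 value was not tested. With the same mix of clusters the log2 ratio was 0.34, and after thinning to 500 UMIs it was also 0.34. T cells held 9 UMIs of Sgk1 in 7 control nuclei and 33 UMIs in 19 treated nuclei, a log2 ratio of 2.09 (1.05 to 3.39) on fewer than 50 UMIs. EC markers in T cells summed to 920 and 688 CPM, with 3 of 13 higher with PD-1 inhibitor and 1 of 13 at 0 in both. Their part in the T cell value of Sgk1 was not tested.

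**Figure D3:**
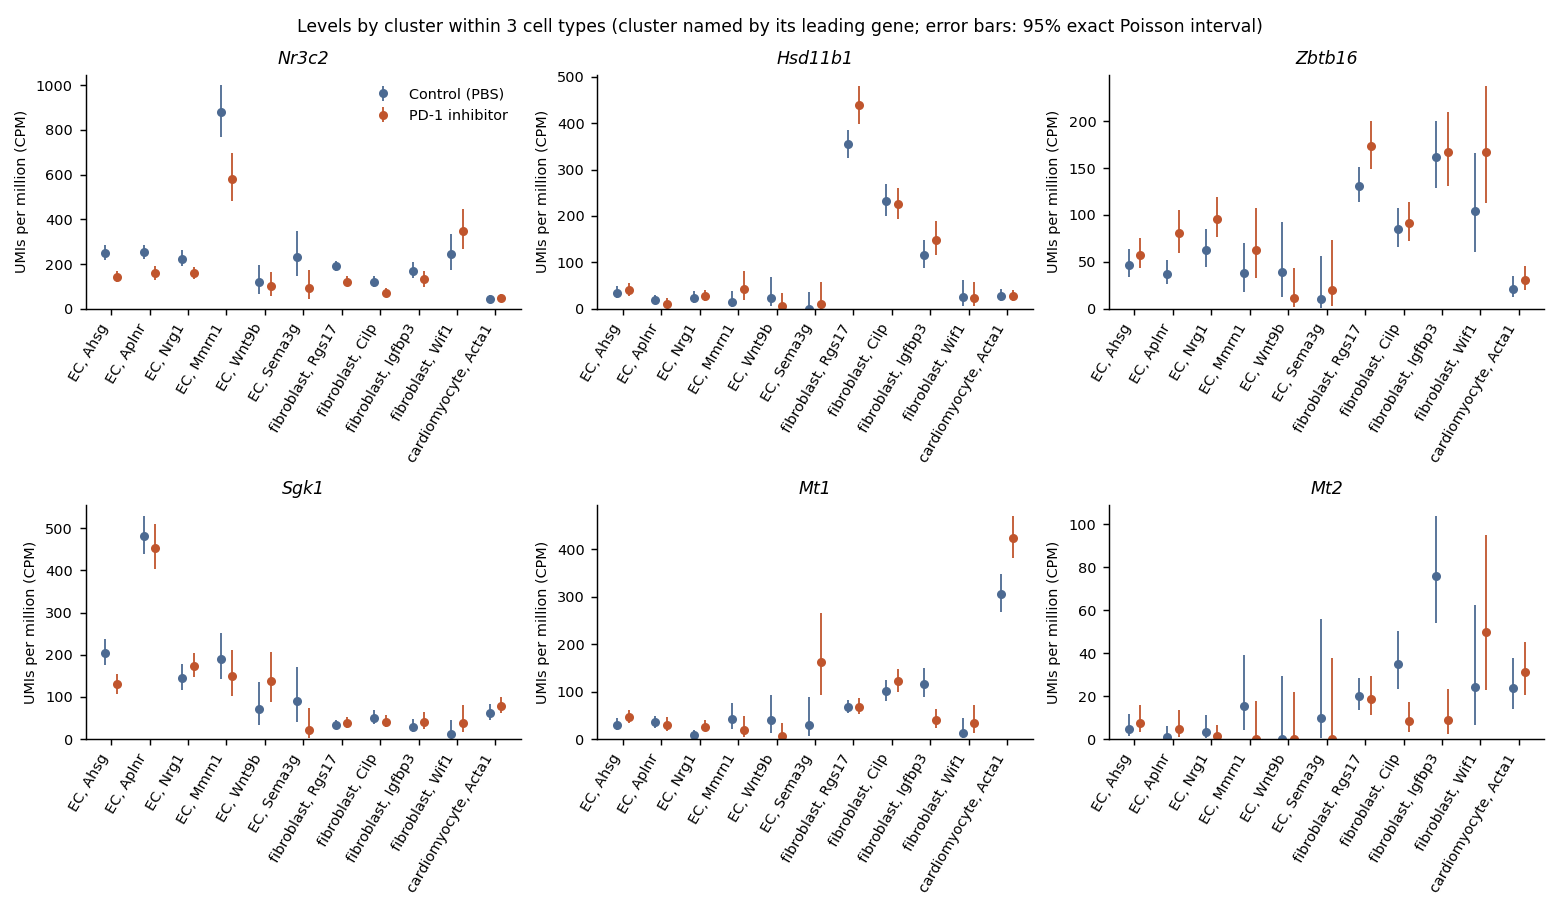
Level of 6 of the genes in 6 clusters of ECs, 4 of fibroblasts and 1 of cardiomyocytes, each with at least 50 nuclei in either library, as UMIs per 1000000 (CPM, vertical axis from 0), with 95% exact Poisson intervals; each cluster is named by its leading genes. Sgk1 was highest in the EC cluster led by Aplnr (483 and 454 CPM), and Mt2 was lower with PD-1 inhibitor in the fibroblast clusters led by Igfbp3 and Cilp.

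Cdkn1a (ENSMUSG00000023067, chr17:29090976-29100727, plus strand) encodes p21, an inhibitor of the cell cycle. It was highest in mesothelial cells, at 175 and 225 CPM, a log2 ratio of 0.36 (0.05 to 0.68). Among ECs the cluster led by Wnt9b and Hapln1 stood highest, at 396 and 436 CPM. In the EC cluster led by Aplnr the level was 116 CPM in control nuclei and 192 CPM in treated nuclei, a log2 ratio of 0.72 (0.34 to 1.11), and over all ECs the log2 ratio was 0.22 (-0.03 to 0.47). The fibroblast cluster led by Cilp had 136 and 99.4 CPM, a log2 ratio of -0.45 (-0.88 to -0.03). Of 12 other p53 target genes over all kept nuclei, 0 passed 1.5-fold in either direction, beside 9.6% of all genes, with a median log2 ratio of 0.11. Btg2 (-0.55), Gdf15 (-0.48, on 56 and 34 UMIs), Mdm2 and Plk2 (0.34) differed most. Mdm2, the ligase that limits p53, stood at -0.34 (-0.46 to -0.22). In mesothelial cells 2 of 8 were higher and 0 lower (5.84% and 6.18% of all genes), with a median of 0.25. In ECs 0 of 9 were higher and 1 lower (5.93% and 4.54%), and in fibroblasts 1 of 10 higher and 1 lower (5.59% and 4.03%).

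Mt1 (ENSMUSG00000031765, chr8:94179082-94180327, plus strand) and Mt2 (ENSMUSG00000031762, chr8:94172664-94173568, plus strand) encode metallothioneins, small proteins that bind zinc and copper. The genes lie 5513 bases apart and their GENCODE transcripts share 0 stretches of 30 bases. Mt1 was highest in cardiomyocytes, at 173 CPM (157 to 190) in control nuclei and 253 CPM (232 to 276) in treated nuclei, a log2 ratio of 0.55 (0.36 to 0.74).

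Mt1 spans 1.246 kb and belongs to the shortest genes (spans up to 3.238 kb), whose median log2 ratio was 0.39 in cardiomyocytes and 0.33 over all kept nuclei, beside 0.36 for Mt1 over all kept nuclei. Mitochondrially encoded transcripts were 3.84% of UMIs in control cardiomyocytes and 4.92% in PD-1 inhibitor cardiomyocytes. Without nuclei over 5% mitochondrial UMIs, which left 806 of 1283 control and 610 of 1089 treated cardiomyocytes, the log2 ratio of Mt1 was 0.26, and with the same mix of clusters it was 0.34. The part of gene length and of mitochondrial RNA in the value of Mt1 was not tested.

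Mt2 was sparse, with 191 UMIs in control nuclei and 159 in treated nuclei. Fibroblasts had 101 UMIs in 53 control nuclei and 39 UMIs in 22 PD-1 inhibitor nuclei, or 33.8 and 15.7 CPM, a log2 ratio of -1.09 (-1.68 to -0.56). The cluster led by Igfbp3 held 39 UMIs in 14 nuclei and 4 UMIs in 2 nuclei, and the cluster led by Cilp held 28 UMIs in 16 nuclei and 7 UMIs in 5 nuclei. The cluster led by Rgs17 had 19.9 and 18.7 CPM, with an interval of the log2 ratio from -1.0 to 0.79. Mt1 in the Igfbp3 cluster had 60 UMIs in 33 nuclei and 18 UMIs in 14 nuclei, a log2 ratio of -1.50 (-2.37 to -0.75), whereas in the Cilp cluster it had 101 and 122 CPM, with an interval that held 0. Both metallothioneins were therefore lower with PD-1 inhibitor in the Igfbp3 cluster, on few nuclei.

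In cardiomyocytes Mt2 had 26 UMIs in 18 control nuclei and 38 UMIs in 29 PD-1 inhibitor nuclei, a log2 ratio of 0.80 (0.05 to 1.59). With the same mix of clusters it was 0.55, which is under 1.5-fold, and without nuclei over 5% mitochondrial UMIs it was 0.39. Mt2 spans 0.905 kb, and of the shortest genes, to which it belongs as Mt1 does, 30.5% passed 1.5-fold in cardiomyocytes. The part of these in the value of Mt2 was not tested. Mesothelial cells had 29 UMIs in 17 nuclei and 62 UMIs in 25 nuclei, a log2 ratio of 0.69 (0.05 to 1.39), but 13 of the 62 UMIs came from 1 nucleus, and with the same mix of depths the log2 ratio was 0.33. UMIs of 1 nucleus are not independent, which the intervals do not cover. The genes most like Mt2 in level were Zfyve21 (r = 0.927), Gga2 (r = 0.912) and Cpeb1 (r = 0.908), over the same 14 points. Of 4 other zinc and metal response genes, 0 passed 1.5-fold over all kept nuclei, beside 9.6% of all genes, with a median log2 ratio of -0.02. Over all kept nuclei the zinc exporter gene Slc30a1 stood highest of the 4 at 0.46 (0.21 to 0.71). In mesothelial cells 1 of 3 was higher by 1.5-fold (5.84% of all genes), with a median of 0.57. In cardiomyocytes 1 of 4 was higher (7.94%), with a median of 0.08. None passed 1.5-fold in ECs, fibroblasts or MPs.

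**Figure D4:**
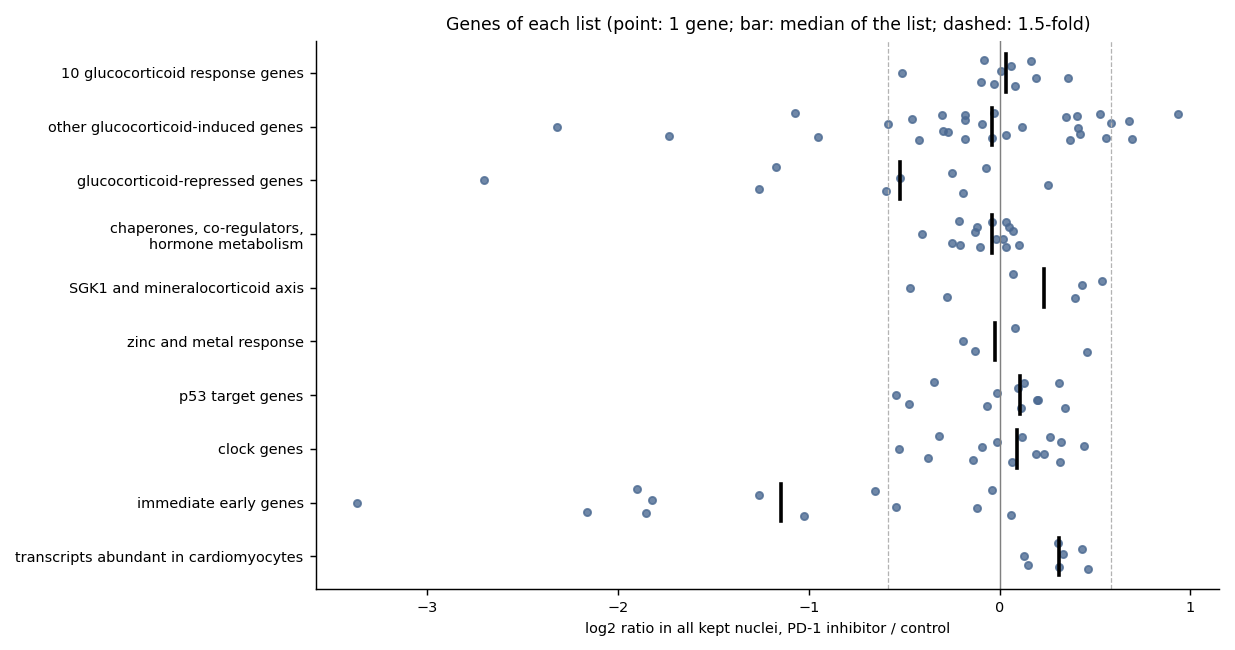
Log2 ratio of PD-1 inhibitor over control over all kept nuclei (horizontal axis) for the 10 genes and for the genes of 9 other lists with at least 50 UMIs; each point is a gene, the bar marks the median of the list and the dashed lines 1.5-fold. The 10 genes lay between -0.51 and 0.36, while immediate early genes reached -3.37.

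Other genes of the pathway were described over all kept nuclei in the same way. Of 29 other glucocorticoid-induced genes with enough UMIs, 3 were higher by 1.5-fold or more and 5 lower, beside 4.57% and 5.03% of all genes, with a median log2 ratio of -0.04. The 4 with the largest differences were Angptl4 (-2.32, -2.77 to -1.92) and Pdk4 (-1.73, -1.91 to -1.56), which act in lipid and fuel use, Dusp1 (-1.08, -1.17 to -0.98), a phosphatase that restrains MAP kinases, and the repressor gene Bcl6 (-0.95, -1.11 to -0.79). Adipocytes, with 154 control and 16 treated nuclei, carried 779 of the 1373 control UMIs of Pdk4 and 238 of the 332 of Angptl4. Without adipocytes the log2 ratios were -0.83 for Pdk4, -1.26 for Angptl4, -1.08 for Dusp1 and -0.92 for Bcl6, and 4 genes of the list were lower in place of 5. The 3 higher genes, named here after their values were seen, were Cdkn1c at 0.94 (0.75 to 1.12), Ddit4 at 0.69 (0.51 to 0.88) and Fam107a at 0.68 (0.10 to 1.28). By cell type, 6 of 27 were higher and 4 lower in ECs (5.93% and 4.54% of all genes), 1 of 26 higher and 3 lower in fibroblasts (5.59% and 4.03%), and 4 of 25 higher and 4 lower in cardiomyocytes (7.94% and 8.06%).

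Dusp1 was lower with PD-1 inhibitor in ECs (1408 and 591 UMIs, log2 ratio -1.21), fibroblasts (-0.95), cardiomyocytes (-0.56), MPs (-1.45) and mesothelial cells (-1.81), each with an interval below 0. It is also known as an immediate early gene, a kind that cells transcribe within minutes of stimulation or tissue handling. Of 12 listed immediate early genes, 0 were higher and 8 lower, beside 4.57% and 5.03% of all genes, with a median log2 ratio of -1.15, and Fos (-3.37), Egr1 (-2.17), Fosb (-1.90) and Ccn1 (-1.85) differed most. The part of this in the value of Dusp1, or in those of the repressed genes described next, was not tested.

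Of 9 genes that glucocorticoids repress, 0 were higher and 4 lower over all kept nuclei, beside the same 4.57% and 5.03% of all genes, with a median log2 ratio of -0.52. By cell type, 3 of 6 were lower in ECs (4.54% of all genes) and 3 of 6 in fibroblasts (4.03%). In MPs 1 of 6 was lower (6.61%), with a median of 0.02, and in cardiomyocytes 0 of 3 (8.06%). None was higher in these 4 types. In mesothelial cells 1 of 2 genes was higher (5.84% of all genes), Vcam1 at 1.02 (0.43 to 1.67), named after its value was seen. Il1b, the interleukin 1 beta gene, had 158 UMIs in control MPs and 16 in PD-1 inhibitor MPs, a log2 ratio of -2.86 (-3.74 to -2.15). Ptgs2, the inducible cyclooxygenase gene, had 207 and 78 UMIs in ECs, a log2 ratio of -1.37 (-1.77 to -0.99). The chemokine gene Cxcl1 had 159 and 35 UMIs in fibroblasts (-1.90, -2.49 to -1.38) but 6 and 16 in cardiomyocytes (1.61, 0.25 to 3.32). The interval of Sele, on 52 and 29 UMIs in all, held 0 (-1.32 to 0.07). Without adipocytes 3 genes of this list were lower.

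Among receptor chaperones, co-regulators and genes of hormone metabolism 0 of 15 passed 1.5-fold, beside 9.6% of all genes, with a median log2 ratio of -0.04. The coactivator gene Ncoa1 differed most (-0.41, -0.49 to -0.33). In the SGK1 and mineralocorticoid axis 0 of 6 passed it, with a median of 0.23. There the sodium pump subunit gene Atp1b1 stood at 0.54 (0.44 to 0.64), the SGK1 substrate gene Ndrg1 at 0.43 (0.28 to 0.58), and Nedd4l, which encodes a ubiquitin ligase that SGK1 acts on, at -0.47 (-0.60 to -0.35). Of 14 clock genes, which follow the time of day as corticosterone does, 0 passed 1.5-fold, with a median of 0.09. In ECs the clock output genes Dbp (13 and 50 UMIs, log2 ratio 1.94, 1.08 to 2.99) and Tef (176 and 327 UMIs, 0.93, 0.66 to 1.20) were higher with PD-1 inhibitor, whereas in mesothelial cells Dbp (-0.65) and Tef (-0.83) were lower. Of 7 transcripts abundant in cardiomyocytes 0 passed 1.5-fold over all kept nuclei, with a median of 0.31.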

How the data were processed

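Single-nucleus libraries of mouse heart, 1 for each group, were made with the GEXSCOPE kit. The authors deposited raw UMI counts for every gene in each nucleus, and the groups were taken from the labels. The submitters' processing notes name GRCm38 and mm10. Aligner, counter and barcode calling are not given in the sources used here, and no deposited barcode had under 500 UMIs. The 10 genes and all gene lists were chosen with earlier results of these data known.

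Nuclei under 200 genes or over 20% mitochondrial UMIs were dropped (83 control and 15 PD-1 inhibitor nuclei), and doublets called by Scrublet in scanpy 1.11.5 (592 or 5.85%, and 308 or 3.87%) were removed. Leiden clustering (leidenalg 0.10.2, resolution 1) used 2000 variable genes, 30 components and 15 neighbours, with 117 genes (the 10 and the lists) withheld. A cluster was named from at least 3 markers, each in 5% of its nuclei at 2 times the level elsewhere, which left 1 of 21 clusters unnamed. UMIs were summed by cell type and library. Intervals at 95% were exact Poisson for CPM, exact conditional binomial for log2 ratios and Clopper-Pearson for shares, and treat UMIs as independent. No test was made. Cell types needed 100 nuclei and clusters 50 nuclei in each library. The values of 1 cardiomyocyte cluster by itself are not reported here. Thinning to 500 UMIs left out 0 nuclei. Besides the 10, the genes named were taken from the 4 of each list with the largest absolute log2 ratio over all kept nuclei, among those with at least 50 UMIs. For Fkbp5, Zbtb16 and Mt2, the 3 genes with the highest Pearson r of log2(CPM + 1), among those with at least 500 UMIs, were also named. Positions come from GENCODE vM21 (GRCm38), which held 32522 of 32589 gene identifiers. The ratio and its interval were tested on simulated data.

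The alternatives were a minimum of 500 genes, a limit of 5% mitochondrial UMIs, no removal of doublets, Leiden resolutions 0.5 and 2, no gene withheld, ratios centred on the median gene, totals that leave out mitochondrial and ribosomal protein genes, means over nuclei, thinning to 500 UMIs, and the same mix of clusters or of depths (5 bins) in both libraries. For counts of genes they were a minimum of 20 or 200 UMIs and a 2-fold limit. Leaving out adipocytes, and the 5% limit without clustering anew, were added after the data were seen.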

Additional observations from a re-analysis of the deposited data

Results flagged for a closer look

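Sgk1 and Mt2 are listed because their counting intervals lay wholly above 0 in 1 cell type and wholly below 0 in another. Only cell types with at least 50 UMIs of the gene were considered. The difference between the cell types was not tested. Sgk1 had a log2 ratio of 0.64 in cardiomyocytes and -0.33 in ECs. Mt2 had a log2 ratio of 0.80 in cardiomyocytes, 0.69 in mesothelial cells and -1.09 in fibroblasts. In mesothelial cells 13 of the 62 treated UMIs of Mt2 came from 1 nucleus, and the log2 ratio was smaller with the same mix of depths. In the cardiomyocyte cluster led by Acta1 the intervals of Sgk1 (-0.23 to 0.90) and Mt2 (-0.53 to 1.33) held 0. With the same mix of clusters in both libraries, Sgk1 stood at 0.34 in cardiomyocytes and -0.16 in ECs, and Mt2 at 0.55 in cardiomyocytes and -1.11 in fibroblasts.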

How the results depend on the processing

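No paired analysis was possible because each group is 1 library. Of 812 recomputed log2 ratios, 796 stayed inside the counting interval of the reported value, 16 moved out of it, and 0 reversed the sign of a difference past 1.5-fold. Over all kept nuclei, Zbtb16 stood at 0.28 after thinning and 0.29 with the same mix of clusters, Mt1 at 0.21 at no more than 5% mitochondrial UMIs, clustered anew or not, and Mt2 at -0.34 as a mean over nuclei. Counts of genes past the limit follow, with the share of all genes past it at that setting. At 2-fold they were 0 of 9 in ECs (1.62%), 0 of 10 in cardiomyocytes (2.21%), 0 of 6 in mural cells (2.77%) and 0 of 9 in mesothelial cells (1.7%). With at least 200 UMIs they were 0 of 9 in fibroblasts (4.39%), 0 of 5 in cardiomyocytes (11.2%), 0 of 1 in mural cells (8.73%) and 1 of 8 in mesothelial cells (2.31%). After thinning they were 2 of 10 in fibroblasts (11.1%), 1 of 6 in cardiomyocytes (15.5%) and 1 of 7 in mesothelial cells (13.8%), and with at least 20 UMIs 3 of 7 in T cells (33.2%). Thinned shares of nuclei with a UMI of Hsd11b1 were 9.85% and 11.1% in fibroblasts, 14.6% and 9.84% in T cells, and 0.318% and 0.226% in MPs. The causes were not tested, apart from thinning itself, which lowers any share, and the count limits, which remove genes. In cardiomyocytes Nr3c2 stood at -0.34 at no more than 5% mitochondrial UMIs, -0.29 after thinning and -0.30 with the same mix of clusters. With 1 library a group, depth limits only counting error, and variation between animals is not known.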

Other observations

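B cells had under 100 nuclei in the PD-1 inhibitor library (205 control and 93 PD-1 inhibitor nuclei, 270944 and 101285 UMIs) and were left out of the comparisons, and the genes named for them were chosen after their values were seen. Nr3c2 had 33 UMIs in control B cells (122 CPM) and 0 in PD-1 inhibitor B cells, which allows up to 29.6 CPM by the limit of 3 counts and 36.4 CPM by the 95% Poisson interval. Sgk1 had 32 UMIs and 1, Fkbp5 had 30 and 2, and Cdkn1a had 31 and 4, each with an interval of the log2 ratio below 0. These intervals do not cover that 20 of the 32 control UMIs of Sgk1 came from 1 of 8 nuclei, and 8 of the 31 of Cdkn1a from 1 of 9 nuclei. Nr3c1 had 101 and 32 UMIs, or 373 and 316 CPM, with an interval that held 0.

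T cells held too few UMIs of most of the genes to enter the counts. Nr3c2 had 19 UMIs in 13 control T cells and 5 UMIs in 4 PD-1 inhibitor T cells, a log2 ratio of -1.56 (-3.44 to -0.19). Of the 19 control UMIs, 5 came from 1 nucleus. Zbtb16, on 18 UMIs in 10 control nuclei and 4 UMIs in 4 treated nuclei, stood at -1.77 on the log2 scale (-3.92 to -0.30). It was thus lower with PD-1 inhibitor, whereas in ECs and mesothelial cells it was higher. Of the 18 control UMIs, 5 came from 1 nucleus, which these intervals do not cover. The shares of T cells with a UMI of Zbtb16, 4.18% (2.02 to 7.56) and 2.07% (0.57 to 5.22), had overlapping intervals.

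In adipocytes, with 154 control and 16 PD-1 inhibitor nuclei, Zbtb16 stood at 330 CPM (273 to 394) and 250 CPM (137 to 419). The control level was above that of the 7 cell types compared, and the interval of the PD-1 inhibitor level overlapped that of mesothelial cells. Tsc22d3, on 30 and 15 adipocyte UMIs or 83.1 and 268 CPM, had a log2 ratio of 1.71 (0.69 to 2.63). The 15 treated UMIs came from 6 nuclei, 5 of them from 1 nucleus. In the same adipocytes mesothelial markers summed to 69.2 and 856 CPM, with 9 of 11 higher, and mitochondrially encoded transcripts were 0.306% and 0.551% of UMIs. Their part in the Tsc22d3 value was not tested.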
